A study of Drosophila melanogaster with 4 samples.

Results

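Insulin-like peptide genes and the insulin receptor gene of Drosophila melanogaster were followed in nuclear poly(A) RNA from fly heads. The members were the 8 genes Ilp1, Ilp2, Ilp3, Ilp5, Ilp6, Ilp7, Ilp8 and InR, chosen by name among the 17137 genes of the deposited count table. They comprise 7 peptide genes and 1 receptor gene. Nuclei were purified by INTACT, a pull-down of nuclei that carry a membrane tag. The tag was UNC84, a nuclear envelope protein, expressed from a UAS transgene. Its driver was a split Gal4, which is active only where 2 promoters each supply their piece. In VAChT:VGlut these were the promoters of VAChT, which loads acetylcholine into vesicles, and of VGlut, which loads glutamate. In VAChT:VGAT the second was that of VGAT, which loads GABA. Both genotypes therefore share the VAChT piece and the tag. All flies were 10 days old and untreated. Each genotype had 2 libraries. The labels state neither the sex of the flies nor whether libraries came from separate collections, so p-values measure the spread between these libraries, which may be technical.

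Insulin-like peptides are secreted hormones that act through a receptor tyrosine kinase. In the adult fly brain, median neurosecretory cells known as insulin-producing cells make Ilp2, Ilp3 and Ilp5 and release them into the circulation. Ilp6 is made mainly in fat body and in some glia, Ilp7 in a small set of neurons, and Ilp8 is a relaxin-like peptide known from imaginal discs and ovarian follicle cells. InR signals through chico, PI3 kinase and Akt to restrain the transcription factor foxo and to activate Tor, and in flies foxo is known to raise transcription of InR.

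Ilp2, Ilp3 and Ilp5 were lower in VAChT:VGlut than in VAChT:VGAT nuclei, at 0.699, 0.646 and 0.617 times the level. InR was higher, at 1.33 times the level. Ilp6 was not past the threshold, and Ilp1, Ilp7 and Ilp8 had too few counts to be tested. Of the 8 members, 5 passed the filter on low counts and 4 of these had an edgeR quasi-likelihood adjusted p-value under 0.05, 3 of them lower and 1 higher in VAChT:VGlut. Over all 8246 genes tested, 11.8% passed this threshold, with 5.54% lower and 6.22% higher in VAChT:VGlut. The calls of all 4 members were lost when the trend of fold change with gene length was removed, in DESeq2 without independent filtering, and with the variation between replicates (biological coefficient of variation) set to 0.1. Their direction was the same in each alternative that gave a value.

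The libraries held 2023040 and 2556988 counts in VAChT:VGlut and 1937871 and 1490390 in VAChT:VGAT. The members together had 603 and 786 counts in VAChT:VGlut and 714 and 456 in VAChT:VGAT. A count of 3 corresponded to between 1.17 and 2.01 CPM, which are counts scaled to library size. Replicates differed slightly more than counting noise would give, with a chi-square divided by its degrees of freedom of 1.22 within VAChT:VGlut and 1.19 within VAChT:VGAT, against 4.302 to 6.003 between genotypes. The labels call the samples neuronal nuclei, and all 6 neuronal markers were detected, but so were fat body, glial and muscle markers, whose levels follow the members' results. Libraries from input or untagged nuclei are not analysed here. In bulk nuclei, fewer cells of a type and less RNA per cell cannot be told apart.

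Ilp1, Ilp2, Ilp3 and Ilp5 lie in a cluster that spans 25478 bases of chromosome 3L (dm6), together with Ilp4, which was not among the members and had 0 and 1 counts in VAChT:VGlut and 0 and 0 in VAChT:VGAT. Ilp2 (FBgn0036046) runs from 9799698 to 9800440 on the plus strand in 2 exons. Ilp3 (FBgn0044050) runs from 9801298 to 9802120 and Ilp5 (FBgn0044048) from 9823349 to 9823897, both on the minus strand and both with 2 exons. Ilp1 (FBgn0044051) is a gene of 1 exon from 9798420 to 9799050 on the plus strand. Ilp2 lies within an intron of CG32052 on the same strand, Ilp3 within CG32052 on the other strand, and Ilp5 within CG43897 on the other strand. Counting used the strand, per the file header, but how strictly the libraries kept strand was not tested, so reads of CG32052 in Ilp3 and of CG43897 in Ilp5 are not measured.

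**Figure D1:**
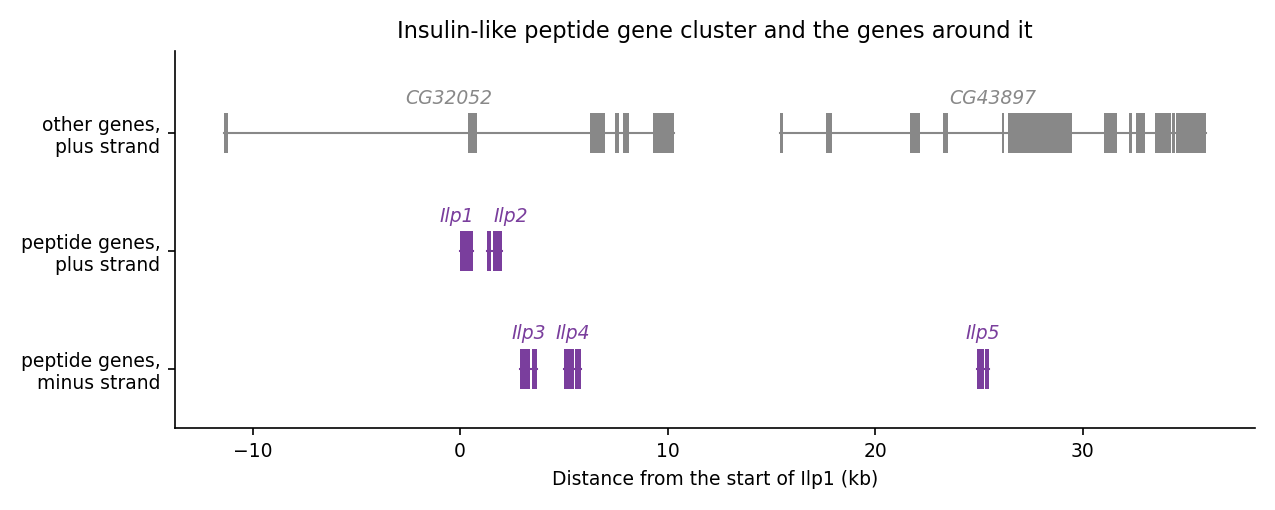
Map of the insulin-like peptide cluster: boxes are exons of the deposited annotation, thin lines are gene spans, and the horizontal axis is the distance in kb from the start of Ilp1. Ilp1 and Ilp2 are on the same strand as CG32052, while Ilp3 and Ilp4 are on the opposite strand from CG32052 and Ilp5 is on the opposite strand from CG43897.

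Ilp2 had the highest level of the peptide genes per kilobase of exon. Its normalised counts (CPM over the TMM-scaled library size) were 91.5 and 82.6 in VAChT:VGlut, against 132 and 114 in VAChT:VGAT. Both VAChT:VGlut libraries lay below both VAChT:VGAT libraries, with means of 87.0 ± 6.24 CPM in VAChT:VGlut and 123 ± 12.8 CPM in VAChT:VGAT (SD, n = 2 each). The log2 fold change was -0.52 (SE 0.11, 95% interval -0.74 to -0.30, edgeR adjusted p = 0.000394). Without VAChT:VGlut replicate 2 it was -0.44 (edgeR adjusted p = 0.0569), and without VAChT:VGAT replicate 1 it was -0.40 (edgeR adjusted p = 0.0802). Unspliced RNA of CG32052 could be counted as Ilp2 where it crosses the exons of Ilp2. CG32052 itself had 84.4 and 103 CPM in VAChT:VGlut and 92.6 and 81.9 in VAChT:VGAT, and its groups overlapped (edgeR adjusted p = 0.692, log2 fold change 0.10 ± 0.12 SE). The ratio of Ilp2 to CG32052 counts was 1.08 and 0.806 in VAChT:VGlut and 1.43 and 1.39 in VAChT:VGAT. The part of CG32052 RNA in the Ilp2 counts was not tested.

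Ilp3 had 47 and 75 counts in VAChT:VGlut and 93 and 52 in VAChT:VGAT. After scaling these were 23.6 and 29.8 CPM in VAChT:VGlut and 47.6 and 34.6 CPM in VAChT:VGAT, so the groups did not overlap, but the gap between the nearest libraries was smaller than the spread within either group. The log2 fold change was -0.63 (SE 0.19, 95% interval -1.01 to -0.25, edgeR adjusted p = 0.0189). Without VAChT:VGAT replicate 1 it was -0.36 (edgeR adjusted p = 0.516), and without VAChT:VGlut replicate 1 it was -0.49 (edgeR adjusted p = 0.186).

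Ilp5 had the fewest counts of the peptide genes that could be tested. There were 39 and 34 counts in VAChT:VGlut, or 19.6 and 13.5 CPM, and 49 and 42 counts in VAChT:VGAT, or 25.1 and 28.0 CPM. The libraries of the genotypes did not overlap. The log2 fold change of -0.70 (SE 0.24, 95% interval -1.18 to -0.22) was just past the threshold (edgeR adjusted p = 0.045). Without VAChT:VGlut replicate 2 it was -0.42 (edgeR adjusted p = 0.446), and leaving out either VAChT:VGAT library also ended the call (edgeR adjusted p = 0.112 and 0.198). CG43897, which surrounds Ilp5 on the other strand, was higher in VAChT:VGlut by 0.28 on the log2 scale (SE 0.08, edgeR adjusted p = 0.0183), a call that held in 8 of 17 alternatives.

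The 3 peptide genes were also compared as shares of their sum. Their summed level was 135 and 126 CPM in VAChT:VGlut and 205 and 176 CPM in VAChT:VGAT. Ilp2 made up 67.9% and 65.6% of their summed counts in VAChT:VGlut, and 64.5% in each VAChT:VGAT library, where the 95% Wilson intervals spanned 59.7% to 69.0% in replicate 1 and 58.6% to 70.0% in replicate 2. The share of Ilp3 was 17.5% and 23.7% in VAChT:VGlut and 23.25% and 19.6% in VAChT:VGAT. The share of Ilp5 was 14.6% and 10.7% in VAChT:VGlut and 12.25% and 15.8% in VAChT:VGAT. The shares of Ilp3 and Ilp5 overlapped between the genotypes, and those of Ilp2 differed by less than their intervals. These intervals cover counting error only, since amplified copies are not independent molecules.

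**Figure D2:**
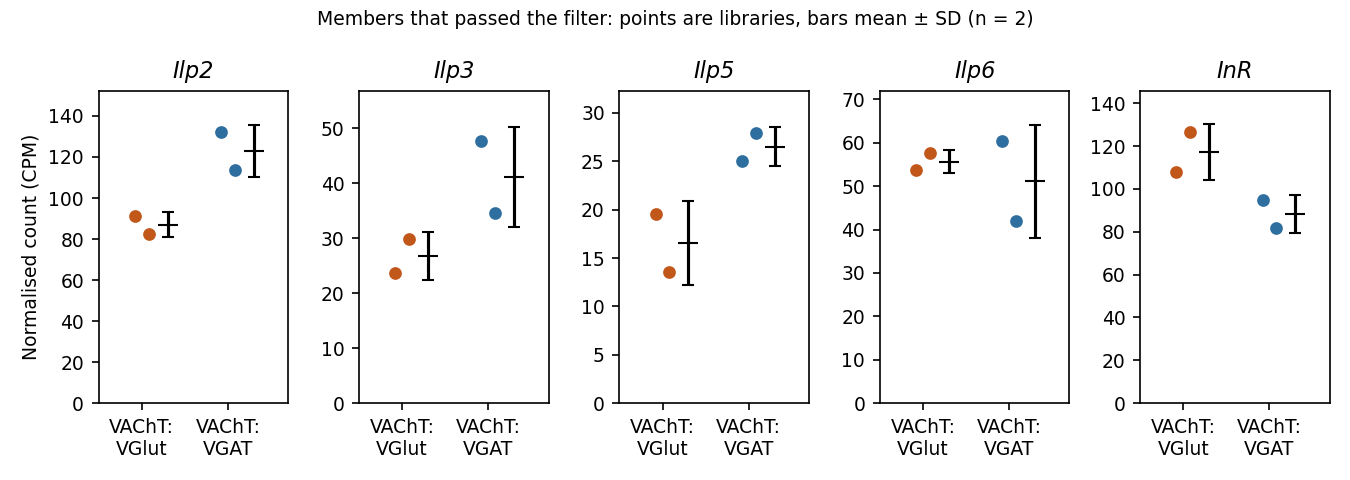
Normalised counts (CPM, linear axes from 0) of the 5 members that passed the filter, with VAChT:VGlut left of VAChT:VGAT; points are libraries and the bar beside them is the mean ± SD (n = 2). Ilp2, Ilp3 and Ilp5 sit lower in both VAChT:VGlut libraries, InR sits higher in both, and the Ilp6 libraries overlap.

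Dsk, which encodes the drosulfakinin peptides, is also made by insulin-producing cells and by other brain neurons. It had 68.3 and 45.7 CPM in VAChT:VGlut and 68.6 and 62.6 in VAChT:VGAT, and one VAChT:VGlut library lay within the range of the other genotype (log2 fold change -0.24, SE 0.15, 95% interval -0.54 to 0.07, edgeR adjusted p = 0.378). The ratio of Ilp2 to Dsk counts was 1.34 and 1.81 in VAChT:VGlut and 1.93 and 1.82 in VAChT:VGAT. The transcription factor gene dimm, which specifies peptide-secreting neurons, had 2 and 4 counts in VAChT:VGlut and 8 and 0 in VAChT:VGAT and could not be tested.

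Ilp6 (FBgn0044047; chromosome X, 2331493 to 2334658, minus strand) has 4 annotated transcripts and lies within the span of Raf, which is on the other strand. It had 53.8 and 57.6 CPM in VAChT:VGlut, against 60.4 and 42.0 CPM in VAChT:VGAT. Both VAChT:VGlut libraries fell between the VAChT:VGAT libraries. The log2 fold change was 0.10 (SE 0.16, 95% interval -0.21 to 0.41, edgeR adjusted p = 0.791), and it took the other sign, -0.11, without VAChT:VGAT replicate 2. A difference within this interval was not detectable at this depth.

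Ilp1, Ilp7 and Ilp8 had few counts, with Ilp1 at 3 or more in every library and Ilp7 and Ilp8 at 3 or fewer. Ilp1, a peptide linked in flies to pupal stages and reproductive dormancy, had 9 and 3 counts in VAChT:VGlut and 7 and 4 in VAChT:VGAT. Its summed counts corresponded to 2.66 CPM in VAChT:VGlut (exact Poisson 95% interval 1.38 to 4.65) and 3.18 CPM in VAChT:VGAT (1.59 to 5.70). Of its exon bases, 258 are shared with CG32052 on the same strand, so 59.1% were its own.

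Ilp7 (FBgn0044046) lies on the plus strand of chromosome X from 3667621 to 3668845. It had 2 and 3 counts in VAChT:VGlut and 2 and 0 in VAChT:VGAT, which gave 1.11 CPM in VAChT:VGlut (exact Poisson 95% interval 0.36 to 2.59) and 0.58 CPM in VAChT:VGAT (0.07 to 2.09). Ilp8 (FBgn0036690) lies on the minus strand of chromosome 3L from 17029812 to 17032080, away from the cluster. It had 2 and 0 counts in VAChT:VGlut and 2 and 1 in VAChT:VGAT. Its level was 0.44 CPM (exact Poisson 95% interval 0.05 to 1.60) in VAChT:VGlut and 0.87 CPM (0.18 to 2.54) in VAChT:VGAT. For Ilp1, Ilp7 and Ilp8 the intervals of the genotypes overlapped over most of their width, and a difference was not detectable at this depth. In a fit without the filter, their edgeR adjusted p-values were 0.911, 0.826 and 0.847.

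InR (FBgn0283499; chromosome 3R, 21570248 to 21619321, minus strand) encodes the receptor tyrosine kinase and spans 49074 bases with 4 annotated transcripts. It had 215 and 318 counts in VAChT:VGlut, or 108 and 126 CPM, and 185 and 123 counts in VAChT:VGAT, or 94.7 and 81.9 CPM. Both VAChT:VGlut libraries were above both VAChT:VGAT libraries. The log2 fold change was 0.41 (SE 0.11, 95% interval 0.18 to 0.63, edgeR adjusted p = 0.00827). It was 0.28 (edgeR adjusted p = 0.31) without VAChT:VGlut replicate 2 and 0.32 (edgeR adjusted p = 0.125) without VAChT:VGAT replicate 2. InR is the longest member, with 11367 exonic bases, while the exonic lengths of Ilp2, Ilp3 and Ilp5 were 670, 751 and 478 bases. With the length trend removed, the log2 fold change of InR was 0.25 (edgeR adjusted p = 0.203), and those of Ilp2, Ilp3 and Ilp5 were -0.32, -0.45 and -0.46 (edgeR adjusted p = 0.0643, 0.167 and 0.301).

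Levels were compared between genes as CPM per kilobase of exon. In VAChT:VGlut the order was Ilp2 (130 ± 9.31 CPM per kilobase, SD, n = 2), Ilp3 (35.6 ± 5.82), Ilp5 (34.6 ± 9.01), Ilp6 (23.1 ± 1.13), InR (10.3 ± 1.14), Ilp1 (4.53 ± 3.73), Ilp7 (1.05 ± 0.13) and Ilp8 (0.58 ± 0.82). In VAChT:VGAT it was Ilp2 (184 ± 19.2 CPM per kilobase, SD, n = 2), Ilp5 (55.5 ± 4.28), Ilp3 (54.7 ± 12.2), Ilp6 (21.2 ± 5.40), InR (7.77 ± 0.79), Ilp1 (4.95 ± 1.03), Ilp8 (0.97 ± 0.29) and Ilp7 (0.49 ± 0.69). On this scale Ilp3 and Ilp5 did not differ beyond their spread in either genotype, nor did Ilp7 and Ilp8. Ilp2 stood above the next peptide in every library, and InR stood below Ilp6 in every library.

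Proteins that bind the peptides, and the relaxin-type receptors, were examined next. None of the 4 such genes tested was past the threshold. ImpL2, a secreted protein that binds insulin-like peptides and opposes them, had 93.0 and 85.8 CPM in VAChT:VGlut and 99.3 and 101 CPM in VAChT:VGAT (-0.17 ± 0.12 as log2 fold change ± SE, edgeR adjusted p = 0.421). Sdr, a secreted decoy of InR, had 98.0 and 108 CPM in VAChT:VGlut and 119 and 120 CPM in VAChT:VGAT (log2 fold change -0.20, 95% interval -0.41 to 0.01, edgeR adjusted p = 0.244). Lgr3, the receptor for Ilp8, had 8.54 and 4.77 CPM in VAChT:VGlut and 5.63 and 4.66 CPM in VAChT:VGAT, and the 95% interval of its log2 fold change ran from -0.59 to 1.20.

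Downstream of the receptor, 1 of the 24 genes tested of the insulin and Tor signalling list was past the threshold, and none of the 6 genes of the Ras arm. Over these and the binding proteins together, 1 of 34 genes was higher in VAChT:VGlut and 0 were lower, against 6.22% and 5.54% of all tested genes, and the median log2 fold change was 0.04 against -0.01 over all tested genes. The gene that was higher was sgg, the fly GSK3 kinase, which Akt inhibits and which also acts in Wnt signalling. It had 849 and 918 CPM in VAChT:VGlut, against 637 and 639 CPM in VAChT:VGAT (0.47 ± 0.05 as log2 fold change ± SE, edgeR adjusted p = 4.22e-13). Its call was lost with the variation between replicates (biological coefficient of variation) set to 0.1 (log2 fold change 0.47, adjusted p = 0.0689, likelihood ratio test in edgeR) or 0.2 and when tested for exceeding a 1.5-fold change.

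None of chico, Akt1, foxo and Thor was past the threshold. The adaptor chico, the fly insulin receptor substrate, had 105 ± 7.11 CPM in VAChT:VGlut and 97.2 ± 2.85 CPM in VAChT:VGAT (SD, n = 2 each), which gave a log2 fold change of 0.12 (95% interval -0.10 to 0.34, edgeR adjusted p = 0.583). The kinase Akt1 had 84.2 ± 1.14 CPM in VAChT:VGlut and 87.7 ± 6.83 CPM in VAChT:VGAT (SD, n = 2 each; 95% interval of the log2 fold change -0.29 to 0.19). The transcription factor foxo had 67.3 and 64.4 CPM in VAChT:VGlut and 68.1 and 65.3 CPM in VAChT:VGAT, with a log2 fold change of -0.02 and a 95% interval of -0.30 to 0.25 (edgeR adjusted p = 0.947). Thor, the translational inhibitor 4E-BP and a known target of foxo in flies, had 127 and 117 CPM in VAChT:VGlut and 129 and 133 CPM in VAChT:VGAT (log2 fold change -0.11, 95% interval -0.30 to 0.09, edgeR adjusted p = 0.586). InR, the other foxo target given here, was the member that was higher in VAChT:VGlut, and a link between its level and foxo was not tested.

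**Figure D3:**
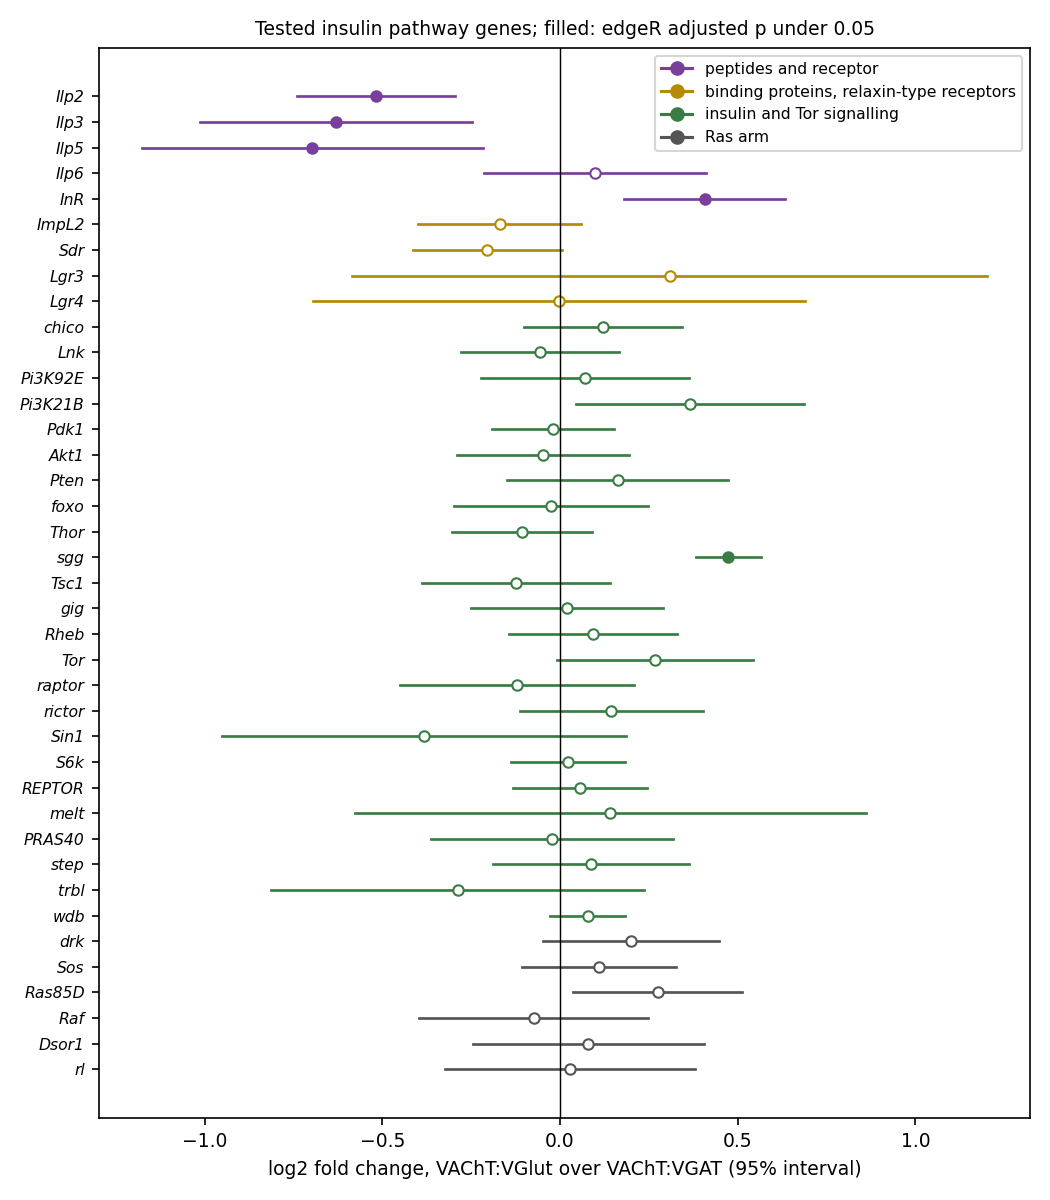
Log2 fold changes of VAChT:VGlut over VAChT:VGAT with 95% intervals for the tested members and insulin pathway genes, coloured by role; filled points had an edgeR adjusted p-value under 0.05. Ilp2, Ilp3 and Ilp5 lie left of 0, InR and sgg right of it, and each of the open points was not past the threshold.

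Genes that signal to insulin-producing cells were read from a list of 30, of which 28 were tested. In VAChT:VGlut, 3 were higher and 1 was lower, against 6.22% higher and 5.54% lower over all tested genes, and the median log2 fold change was 0.14. AstA, which encodes the allatostatin A peptides, had 62.8 and 84.6 CPM in VAChT:VGlut, against 53.2 and 38.0 CPM in VAChT:VGAT (0.68 ± 0.16 as log2 fold change ± SE, edgeR adjusted p = 0.00083). Without VAChT:VGlut replicate 2 its log2 fold change was 0.44 (edgeR adjusted p = 0.227), and without VAChT:VGAT replicate 2 it was 0.49 (edgeR adjusted p = 0.0504). The gene jeb, which encodes the secreted ligand of the receptor kinase Alk, had 547 and 604 CPM in VAChT:VGlut and 451 and 445 CPM in VAChT:VGAT (0.37 ± 0.05 as log2 fold change ± SE, edgeR adjusted p = 2.35e-07).

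Tk, the tachykinin precursor gene, had 172 and 187 CPM in VAChT:VGlut and 150.5 and 145 CPM in VAChT:VGAT (0.28 ± 0.09 as log2 fold change ± SE, edgeR adjusted p = 0.0205). Its call was lost with library size alone as the scaling (edgeR adjusted p = 0.0514), and without VAChT:VGlut replicate 2, VAChT:VGAT replicate 1 or VAChT:VGAT replicate 2 (edgeR adjusted p = 0.307, 0.0853 and 0.118). The gene that was lower was Gbp2, a growth-blocking peptide of the fat body, with 79.4 and 87.0 CPM in VAChT:VGlut and 106 and 104 CPM in VAChT:VGAT (log2 fold change -0.33, SE 0.12). It was just past the threshold (edgeR adjusted p = 0.0463) and just short of it with the size factors of DESeq2 in edgeR (adjusted p = 0.051), and leaving out any 1 of the 4 libraries ended the call (edgeR adjusted p = 0.106 to 0.259). Akh, the adipokinetic hormone of the corpora cardiaca, had 0 and 1 counts in VAChT:VGlut and 0 and 1 in VAChT:VGAT.

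A list of 6 genes held dimm and 5 genes of peptide processing and release. Those 5 were tested, and 3 were higher in VAChT:VGlut and 0 lower, against 6.22% higher and 5.54% lower over all tested genes. IA-2, a dense-core vesicle protein, had 14292 and 14708 CPM in VAChT:VGlut, against 8199 and 8242 CPM in VAChT:VGAT (0.82 ± 0.02 as log2 fold change ± SE, edgeR adjusted p = 2.29e-41). Cadps, which acts in vesicle release, was higher by 0.42 on the log2 scale (SE 0.05, edgeR adjusted p = 1.3e-09). The Cadps call was lost with the variation between replicates set to 0.1 (adjusted p = 0.141, likelihood ratio test in edgeR) or 0.2, and in the test against a 1.5-fold change. The prohormone convertase gene amon was higher by 0.18 (SE 0.05, edgeR adjusted p = 0.0202), and this call held in 6 of 17 alternatives. It was lost with library size alone as the scaling (edgeR adjusted p = 0.0833) and without VAChT:VGlut replicate 1, VAChT:VGlut replicate 2 or VAChT:VGAT replicate 1 (edgeR adjusted p = 0.0755, 0.122 and 0.429), the last with a log2 fold change of 0.11. Of the other two tested genes, the peptide-amidating enzyme gene Phm had 214 and 190 CPM in VAChT:VGlut and 224 and 224 CPM in VAChT:VGAT (log2 fold change -0.16, edgeR adjusted p = 0.213). The carboxypeptidase gene svr had 451 and 440 CPM in VAChT:VGlut and 432 and 460 CPM in VAChT:VGAT, and its groups overlapped (edgeR adjusted p = 0.998).

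Markers of other cells moved between the genotypes as well. The counts of called markers below stand against 5.54% lower and 6.22% higher in VAChT:VGlut over all tested genes. Fat body genes had a summed level of 28011 and 27390 CPM in VAChT:VGlut and 33917 and 33962 CPM in VAChT:VGAT, and 6 of the 7 tested were lower and 0 higher. Fbp1, the fat body marker that was not tested, had 1 count in all 4 libraries together. The yolk protein genes Yp1, Yp2 and Yp3 held most of the fat body sum, with means of 11371, 6960 and 5361 CPM in VAChT:VGlut. In VAChT:VGAT their means were 13605, 8872 and 7032 CPM. The other called fat body markers had log2 fold changes of -0.47 for Lsp2, -0.13 for apolpp and -0.48 for Lsd-1. Glial markers summed to 1306 and 1209 CPM in VAChT:VGlut and 1678 and 1711 CPM in VAChT:VGAT, with 3 of 6 lower and 0 higher. General neuronal markers summed to 7467 and 7653 CPM in VAChT:VGlut and 6534 and 6647 CPM in VAChT:VGAT, and all 6 were higher. Photoreceptor markers (4 of 4 higher) summed to 20722 and 20899 CPM in VAChT:VGlut and 16195 and 16431 CPM in VAChT:VGAT, and muscle markers (4 of 4 higher) to 928 and 911 CPM in VAChT:VGlut and 632 and 653 CPM in VAChT:VGAT.

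Ilp2, Ilp3 and Ilp5 were lower in VAChT:VGlut, as were the 6 called fat body markers and the 3 called glial markers alrm, Gat and Gs2 (log2 fold changes -0.79, -0.53 and -0.47). The other glial markers were not past the threshold, with log2 fold changes of -0.17 for repo, -0.01 for moody and 0.11 for wrapper. InR was higher, as were the neuronal, photoreceptor and muscle markers. The ratio of Ilp2 to counts of the astrocyte-like glia gene alrm was 0.79 and 0.72 in VAChT:VGlut and 0.63 and 0.61 in VAChT:VGAT, while the ratio to the fat body gene Yp1 was 0.0079 and 0.0074 in VAChT:VGlut and 0.0097 and 0.0084 in VAChT:VGAT. Ilp2 was higher relative to alrm and lower relative to Yp1 in both VAChT:VGlut libraries, and neither difference was tested. Ovary and egg genes summed to 4.02 and 3.18 CPM in VAChT:VGlut and 56.8 and 42.6 CPM in VAChT:VGAT. The 2 tested ovary genes, dhd and CycB, passed the filter on low counts only through the VAChT:VGAT libraries. Their lower level in VAChT:VGlut was therefore selected by the filter and gives no support. The germline gene dhd had 0 and 1 counts in VAChT:VGlut and 30 and 20 in VAChT:VGAT, and the cyclin gene CycB had 2 and 1 counts in VAChT:VGlut and 53 and 32 in VAChT:VGAT. The part of any of these cell types in the members' results was not tested. The follicle cell genes Vm26Aa and Vm26Ab had 0 counts in every library. Of the same list, Fcp3C had 4 and 4 counts in VAChT:VGlut and 6 and 1 in VAChT:VGAT, and Vm32E had 0 and 0 in VAChT:VGlut and 1 and 0 in VAChT:VGAT. Ilp8 had at most 2 counts in a library. Of the transmitter genes, VGlut had 380 CPM in VAChT:VGlut and 256 CPM in VAChT:VGAT and was higher (log2 fold change 0.58), and the GABA synthesis gene Gad1 was lower (log2 fold change -0.90). VGAT itself had 176 CPM in VAChT:VGlut and 164 CPM in VAChT:VGAT and was not past the threshold (edgeR adjusted p = 0.57).

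**Figure D4:**
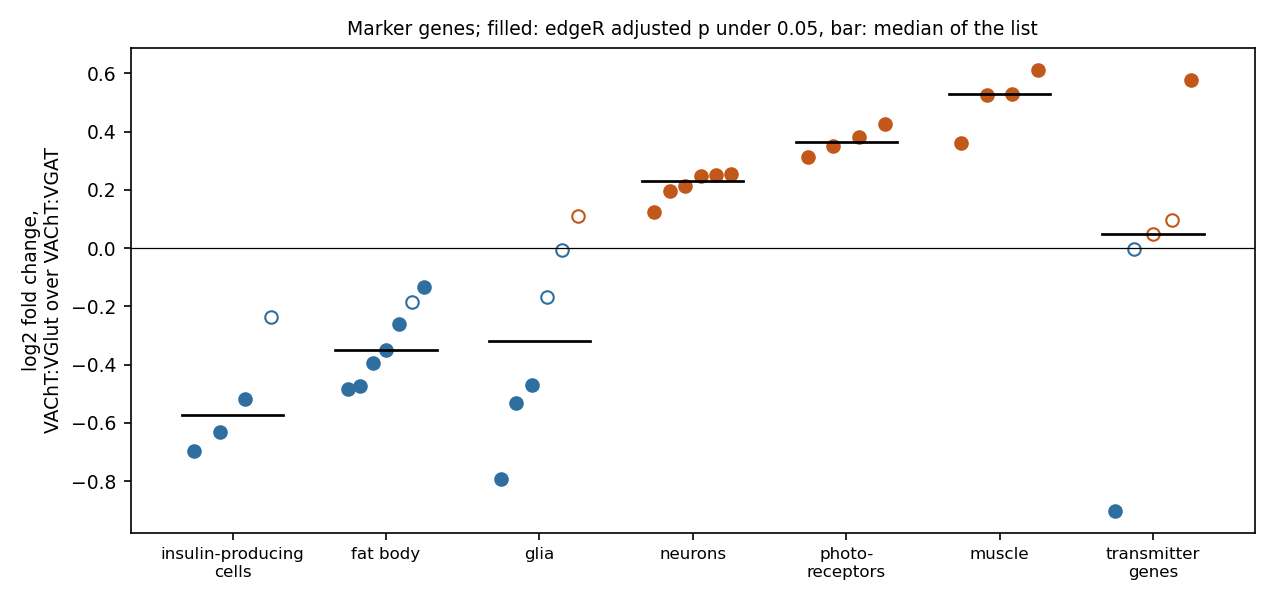
Log2 fold changes of VAChT:VGlut over VAChT:VGAT for marker genes of each cell class and for transmitter genes; filled points had an edgeR adjusted p-value under 0.05 and the bar is the median of the tested genes of the list. The insulin-producing cell list, which holds Ilp2, Ilp3, Ilp5 and Dsk, has a median of -0.57, fat body -0.35, glia -0.32, neurons 0.23, photoreceptors 0.37 and muscle 0.53. Of the insulin-producing cell list only Dsk is not a member (log2 fold change -0.24, edgeR adjusted p = 0.378), so the median of that list mostly restates the members' values.

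The genes with the pattern most like each called member were ranked over the 4 libraries by Euclidean distance in log2(CPM + 1) centred on the mean of the libraries, among 8115 genes with a mean of at least 5 CPM. For Ilp2 they were CG9649 (distance 0.0519), the neprilysin-like gene Nepl5 (0.0550) and CG31769 (0.0558), with log2 fold changes of -0.57, -0.52 and -0.49. For Ilp3 they were CG5382, CG4813 and CG11534 (0.0966, 0.105 and 0.106), and for Ilp5 l(3)neo43, CG42562 and CG10352 (0.0835, 0.103 and 0.111). For InR they were jp, CG14535 and RpII33 (0.0483, 0.0503 and 0.0562). Of all these nearest genes, only CG9649, CG31769 and jp were past the threshold (edgeR adjusted p = 0.0121, 0.000279 and 0.00365). The others ranged from 0.0516 for l(3)neo43 to 0.54 for RpII33 in edgeR adjusted p. With 4 libraries such distances describe the levels and separate few patterns. No member was among the 3 nearest genes of another.

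**Figure D5:**
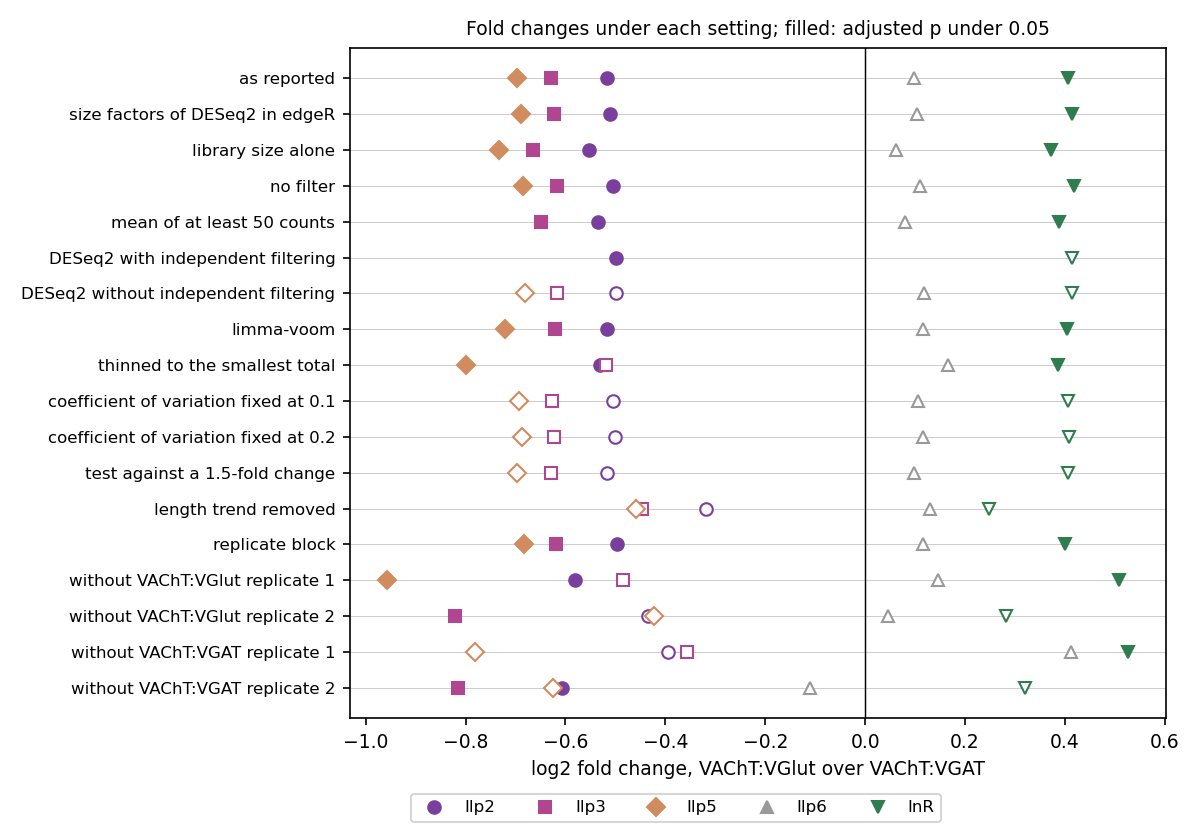
Log2 fold changes of the 5 tested members (VAChT:VGlut over VAChT:VGAT, horizontal axis) under the reported fit and each of 17 alternative settings (rows); filled symbols had an adjusted p-value under 0.05, and a symbol is missing where the setting gave no adjusted p-value. Ilp2, Ilp3 and Ilp5 stay left of 0 and InR right of 0 in every row in which they appear, while Ilp6 crosses to the left in 1 row.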

How the data were processed

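Per the file headers, the authors counted read pairs with featureCounts 1.5.1 on the reverse strand over exons of the dm6 refGene annotation, and the deposited values are raw counts with an exonic length for each gene. The submitters' processing notes also name fastp, STAR and DESeq2, with no versions. No setting for read pairs shared by overlapping genes stands in the header, and removal of amplified copies is not given in the sources used here. The deposited symbols of the members matched FlyBase genes whose spans and strands were the same in the Ensembl BDGP6 annotation.

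Genotypes were compared with the quasi-likelihood test of edgeR 4.0.16 (R 4.3.3) on all 4 libraries, without a replicate block, after filterByExpr (minimum count 10, minimum total 15) and TMM scaling (factors 0.988 to 1.013), with Benjamini-Hochberg adjustment over 8246 genes and a threshold of 0.05. The estimated common biological coefficient of variation was 2.18%, which is low and sets how readily small differences pass. Each standard error was the fold change divided by the square root of F. Alternatives used limma-voom (limma 3.58.1), DESeq2 1.42.0, other scalings and filters, and single libraries left out. The named genes were all 8 members, up to 6 called genes of each list, and foxo, Thor, chico, Akt1, ImpL2, Lgr3 and Dsk; CG32052, CG43897, Ilp4, Sdr, dimm, Akh, Phm, svr and the marker genes singled out were named after their values were seen. The members and lists were chosen with earlier results of these data known. One listed symbol, susi, was not matched and is not analysed here. The lists give no independent support.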

Additional observations from a re-analysis of the deposited data

How the results depend on the processing

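Of 17 alternatives, 13 changed the scaling, filter, tool, depth, variation or block and 4 left out a library. The 4 called members kept their direction wherever a value was given, with ranges of -0.61 to -0.32 for Ilp2, -0.82 to -0.36 for Ilp3, -0.96 to -0.42 for Ilp5 and 0.25 to 0.53 for InR on the log2 scale. Their calls held in 10 of 17, 8 of 16, 7 of 15 and 9 of 17 alternatives. Of 4 called members, 1 (Ilp2) was left in DESeq2 with independent filtering, where Ilp3, Ilp5 and Ilp6 had no adjusted p-value and 370 genes were called in all. In 5 settings 0 members were left: DESeq2 without that filtering (318 genes in all), a coefficient of variation fixed at 0.1 (186 genes) or at 0.2 (24 genes, a setting added with earlier results known), a test against a 1.5-fold change (46 genes), and removal of the length trend (628 genes). Of 1 called signalling gene, 0 were left with the variation fixed at 0.1 or 0.2 and in the 1.5-fold test. Leaving out 1 library gave 1 to 3 called members, 513 to 738 called genes and 1 called signalling gene. Without VAChT:VGlut replicate 2 only Ilp3 was called, without VAChT:VGAT replicate 1 only InR, without VAChT:VGAT replicate 2 Ilp2 and Ilp3, and without VAChT:VGlut replicate 1 Ilp2, Ilp5 and InR. In these fits the lone library of a genotype is assumed to vary like the others. Scaling by library size alone shifted the all-gene median log2 fold change by -0.04 and gave 398 genes higher and 575 lower in VAChT:VGlut, against 513 and 457, with the same 4 members called. Signs reversed only for genes with no call. With 1 library left out, log2 fold changes ran from -0.1113 (without VAChT:VGAT replicate 2) to 0.4125 for Ilp6, from -0.5249 to 0.05494 for Dsk, from -0.05072 to 0.01409 for foxo, from -0.1353 to 0.02451 for Akt1, from -0.1207 to 0.7111 for Lgr3 and from -0.05468 to 0.2252 for CG32052. After thinning, foxo was at 0.0071 and Akt1 at 0.0467, and with the length trend removed Thor was at 0.0758. The cause was not tested for any of these changes. Replicate numbers are shared between genotypes in the labels. As a replicate block they gave 1049 genes and 4 members. Across genes, the departures of libraries with 1 number from their genotype's mean correlated at -0.03. Replicates differed only slightly more than counting noise would give, so this value cannot show whether libraries with the same number were handled together. Depth limits Ilp1, Ilp7 and Ilp8. In every library Ilp7 and Ilp8 were at or below the floor of 3 counts, and Ilp1 had 3 to 9 counts.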
